A study of Mus musculus with 6 samples.

Results

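The 39 genes described here are interferon-stimulated genes and sensors of foreign or misplaced nucleic acid. They were chosen by name and not by a cut on their measured values, but with earlier results of these data known. The table of RNA levels held 25978 genes, and 39 of 39 members had a row and passed the filter on low values. The members are not a complete set, and other genes of this kind are described further below from pathway lists. The members were compared between 3 libraries of EpCAM- cells and 3 libraries of EpCAM+ cells, sorted as YFP+ from primary pancreatic tumours. The mice of both groups were KPCY mice in a C57BL/6 background, aged 5 to 7 weeks, and carried Pdx1-Cre together with Trp53fl/fl, the reporter Rosa26LSL-YFP and a further allele. In these mice Cre made under the Pdx1 promoter removes Trp53 and switches on the YFP label. Pdx1 is active across the developing pancreas, so a YFP+ cell is of Pdx1 lineage but need not be a tumour cell, in either group. EpCAM is an adhesion molecule of epithelial cells, and the study set out to characterise the epithelial and mesenchymal cells of these tumours. The submitters describe 3 biological replicates, without saying which animals or how many stand behind each library. The p-values therefore measure the spread between these libraries, part of which may be technical.

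Type I and type III interferons are secreted when a cell detects viral or misplaced nucleic acid. They bind receptors that act through JAK kinases on STAT2 and its partners, which bind the interferon-stimulated response element (ISRE) near the genes they switch on. Interferon-gamma acts on a different element, the gamma-activated site. RIG-I (Ddx58) and MDA5 (Ifih1) detect RNA and signal through MAVS, while cGAS (Cgas) detects DNA and signals through STING (Tmem173). Many of the sensors are themselves interferon-stimulated, so the system can amplify its own output.

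The letters of the response element can be read in the promoters, which are shown because the members moved together between libraries of one group, as described next. RefSeq promoters (GRCm38.p6) were found for 29 of the 39 members. The ISRE core was searched as GAAA, any 2 bases and a second GAAA, on either strand in the 250 bases before the start of the gene, and copies that overlap each other were all counted. It was in 13 of 29 members (44.8%) and in 936 of 27025 genes (3.46%). Below, each stretch runs 5′ to 3′ on the strand of its gene, with the core matches in capitals.
Isg15, chr4:156200855-156200906, minus strand: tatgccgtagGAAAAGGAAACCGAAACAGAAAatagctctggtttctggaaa
Ifit1, chr19:34640775-34640833, plus strand: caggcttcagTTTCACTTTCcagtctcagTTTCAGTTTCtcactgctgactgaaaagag
Ifit3, chr19:34583363-34583436, plus strand: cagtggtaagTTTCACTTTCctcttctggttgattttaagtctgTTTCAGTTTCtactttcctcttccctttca
Ifit3b, chr19:34607759-34607832, plus strand: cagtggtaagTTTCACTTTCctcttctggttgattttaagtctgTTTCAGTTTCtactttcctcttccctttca
Oas1a, chr5:120907526-120907555, minus strand: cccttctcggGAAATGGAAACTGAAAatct
Rsad2, chr12:26456543-26456582, minus strand: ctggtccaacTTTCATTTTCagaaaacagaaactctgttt
Bst2, chr8:71537567-71537612, minus strand: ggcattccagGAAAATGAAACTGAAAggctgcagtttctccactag
Igtp, chr11:58199512-58199551, plus strand: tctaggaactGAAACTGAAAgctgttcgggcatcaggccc

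Isg15 held 3 overlapping cores, and Oas1a and Bst2 held 2 overlapping cores each. Ifit1, Ifit3 and Ifit3b each held 2 separate cores on the other strand, and the stretches of Ifit3 and Ifit3b have identical letters. The core was in 2 of 6 promoters of members that were higher in EpCAM- cells, in 1 of 4 that were lower and in 10 of 19 that did not pass the test. The gamma-activated site core, TTCNNNGAA, was in 7 of 29 members (24.1%) and in 2197 of 27025 genes (8.13%), and in Bst2 it overlapped an ISRE core. A match describes these letters and is not evidence that a factor binds.

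The sort was visible in the target of the antibody. Epcam had log2 levels of 8.42, 8.22 and 7.22 in EpCAM- cells, against 15.06, 14.90 and 14.89 in EpCAM+ cells, a difference of -7.00 ± 0.30 (SE; limma adjusted p = 7.43e-06). Libraries correlated at r = 0.977 to 0.989 within groups and 0.854 to 0.883 across them, over the 15783 genes tested. All levels are the authors' normalised values on a log2 scale, so 1 unit is a doubling, and differences are EpCAM- minus EpCAM+. The depth of the libraries is unknown because the values are normalised. In such bulk samples, fewer cells of a type and less RNA per cell cannot be told apart.

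Between the groups the members split rather than moving one way. By limma with Benjamini-Hochberg adjustment over all genes tested, Ifit1, Ifit2, Ifit3b, Samhd1, Ddx58 and Cgas were higher in EpCAM- cells, and Trim25, Isg20, Parp9, Dtx3l and Stat2 were lower. The other 28 members did not pass the threshold of 0.05. The 11 of 39 that passed (28.2%) stand beside 43.4% of all genes tested, 20.3% higher and 23.1% lower. The count rests on single libraries. Without EpCAM- replicate 1, 16 members passed (41%, against 46.3% of all genes), 13 higher and 3 lower. Without EpCAM+ replicate 1, 6 passed (15.4%, against 34.4%), and without EpCAM+ replicate 2, 7 passed (17.9%, against 35.3%). The median difference was 0.10 over the members and 0.00 over all genes. A difference of at least 1 in size was seen for 16 members, of which 8 passed. The share of all genes with a difference of that size was not counted, so the 16 only describe the members. The groups did not overlap for 12 members, 6 above and 6 below, where 56.3% of all genes did not overlap. With quantile normalisation, which moved the median of all genes to 0.14, 8 members were higher and 4 lower (30.8% in all, against 47.4% of all genes).

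**Figure D1:**
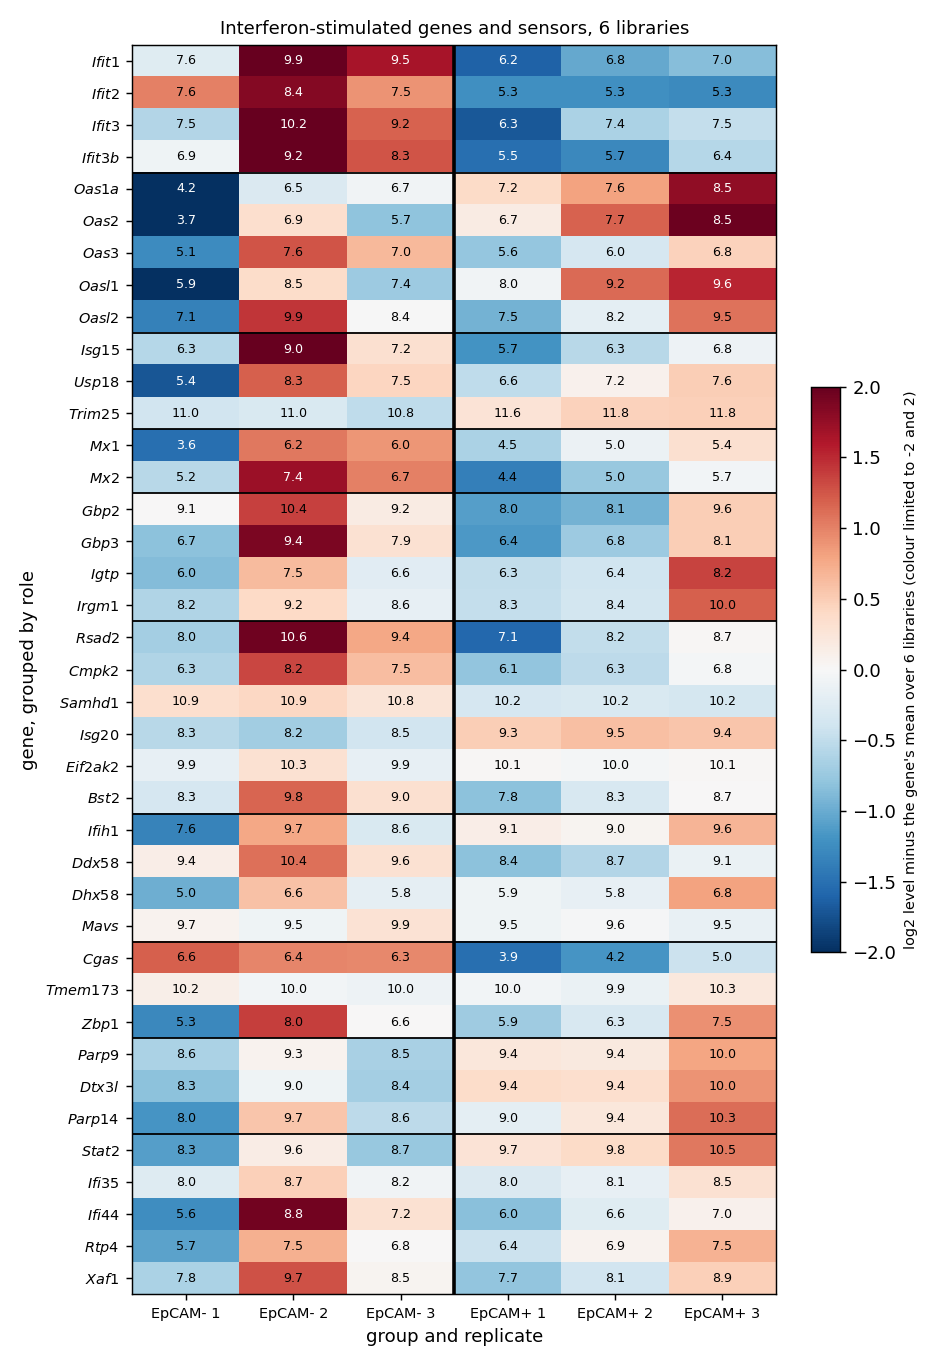
Level of each of the 39 members in each library, on the deposited log2 scale, with EpCAM- libraries left of EpCAM+ libraries. Most members are lowest in replicate 1 of each group and highest in EpCAM- replicate 2 or EpCAM+ replicate 3.

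The members spread more within each group than the median gene, and most had the same order of libraries. The median SD over 3 libraries was 0.90 for members in EpCAM- cells, where all genes had 0.23. In EpCAM+ cells it was 0.51 for members and 0.16 for all genes. Replicate 1 was the lowest EpCAM- library for 30 of 39 members (76.9%, against 34.1% of all genes), and replicate 2 was the highest for 34 of 39 (87.2%, against 32% of all genes). Among EpCAM+ libraries, replicate 1 was lowest for 30 of 39 (76.9%, against 28.6%) and replicate 3 was highest for 35 of 39 (89.7%, against 29.1%). In 27 of 39 members replicate 1 was lowest in both groups (69.2%, against 15.6% of all genes).

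Taken from the lowest to the highest of these libraries, the gradient spanned over 1 unit in many members. EpCAM- replicate 2 exceeded replicate 1 by a median of 1.78 over the members and -0.03 over all genes, and by at least 1 in 27 members (5.84% of all genes). EpCAM+ replicate 3 exceeded replicate 1 by a median of 0.96, and by at least 1 in 19 members (2.76% of all genes). The gradient was not seen in all members. Mavs and Tmem173, which code for adaptors, were neither lowest in replicate 1 nor highest in replicate 2 of the EpCAM- cells. Neither were Cgas and Isg20.

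**Figure D2:**
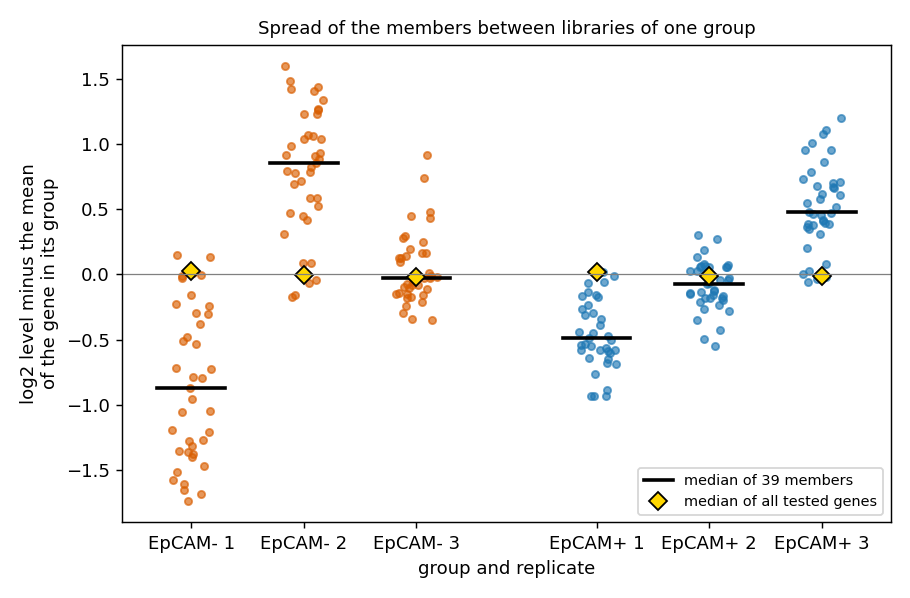
Deviation of members from their group mean in each library, on the log2 scale, with EpCAM- libraries left of EpCAM+ libraries. The median deviations of the members are -0.87, 0.86 and -0.03 in EpCAM- replicates 1 to 3, and -0.49, -0.08 and 0.48 in EpCAM+ replicates 1 to 3.

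The libraries were also set side by side by replicate number. EpCAM- levels were above EpCAM+ levels for 18 of 39 members in replicate 1 (46.2%, against 51.3% of all genes). They were above for 30 in replicate 2 (76.9%, against 49.6%) and 16 in replicate 3 (41%, against 49.6%). The median differences were -0.18, 1.11 and -0.32 over the members, and 0.02, -0.01 and -0.01 over all genes. EpCAM- was above in all 3 for 12 members (30.8%, against 35.6% of all genes) and below in all 3 for 8 (20.5%, against 35.3%). The numbers only name the libraries here, so these counts are a description.

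**Figure D3:**
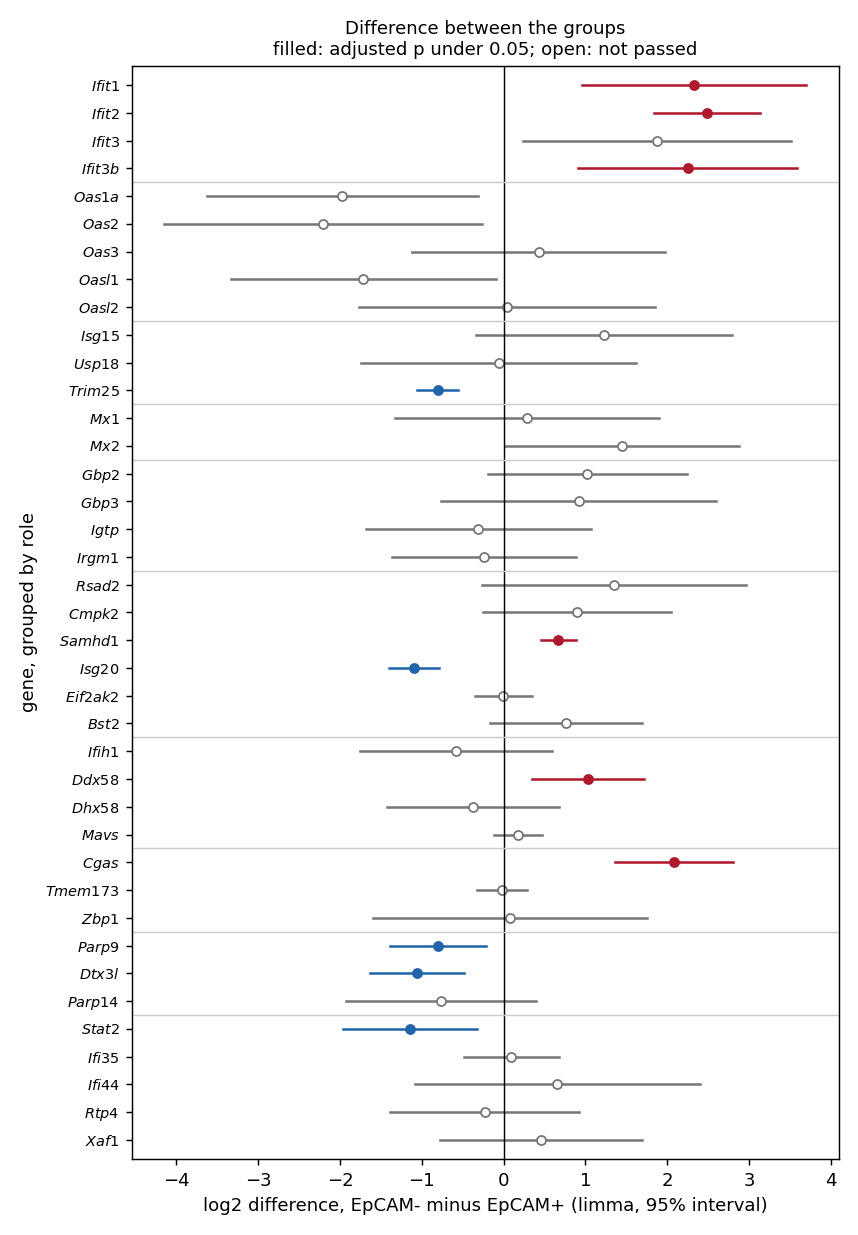
Difference between EpCAM- and EpCAM+ cells for each member on the log2 scale, with 95% intervals from limma. Members past the threshold are marked, and run from Ifit2 at 2.49 to Stat2 at -1.14.

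The IFIT genes, which lie next to one another on chromosome 19, rose in EpCAM- cells in 3 of 4 cases, where 20.3% of all genes were higher. Their proteins bind viral RNA and impede its translation. Ifit2 had log2 levels of 7.58, 8.40 and 7.47 in EpCAM- cells, against 5.34, 5.35 and 5.29 in EpCAM+ cells. The groups were well apart, and the difference of 2.49 ± 0.27 (SE), 5.6-fold, passed with a limma adjusted p of 0.00042. Ifit1 had 7.58, 9.90 and 9.46 in EpCAM- cells, against 6.20, 6.79 and 6.96 in EpCAM+ cells. It was higher by 2.33 ± 0.58 (limma adjusted p = 0.0163), again without overlap, but EpCAM- replicate 1 lay near the EpCAM+ range. The call of Ifit1 did not hold without EpCAM- replicate 3, without EpCAM+ replicate 1, or without both (adjusted p 0.000586 to 0.119 over 17 alternatives).

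Ifit3b and Ifit3 share part of their transcript sequence. Ifit3b had 6.91, 9.19 and 8.25 in EpCAM- cells, against 5.48, 5.70 and 6.42 in EpCAM+ cells, a difference of 2.25 ± 0.56 (limma adjusted p = 0.0167). Its call did not hold without EpCAM+ replicate 1, without EpCAM+ replicate 2, or without EpCAM+ replicate 1 and EpCAM- replicate 3 (0.00257 to 0.111). Ifit3 had 7.45, 10.24 and 9.22 in EpCAM- cells, against 6.33, 7.40 and 7.55 in EpCAM+ cells. Its lowest EpCAM- library fell inside the EpCAM+ range and the difference of 1.88 did not pass (limma adjusted p = 0.0648). Of the 50-base words in Ifit3 transcripts, 51.2% also occur in Ifit3b, so how reads were divided between them is uncertain.

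None of the 5 oligoadenylate synthetase (OAS) genes passed with all 6 libraries and no replicate block. With the replicate number as a block, Oas1a, Oas2 and Oasl1 passed (limma adjusted p = 0.0103, 0.0132 and 0.0099). The synthetases sense double-stranded RNA and make the messenger that activates RNase L, while the OAS-like proteins act otherwise. The 5 differences ran from -2.21 to 0.43. Oas2 had 3.69, 6.87 and 5.72 in EpCAM- cells, against 6.70, 7.71 and 8.49 in EpCAM+ cells, with a difference of -2.21 (limma adjusted p = 0.0662). The ranges overlapped because EpCAM- replicate 2 was above EpCAM+ replicate 1. Oas1a had 4.18, 6.48 and 6.70 in EpCAM- cells, against 7.16, 7.58 and 8.54 in EpCAM+ cells. Its groups did not overlap, yet the spread was wide and the difference of -1.97 did not pass (limma adjusted p = 0.0579). These values turned on single libraries: Oas2 passed without EpCAM- replicate 2 (limma adjusted p = 0.0248, within 0.0132 to 0.198 over 17 alternatives) and Oas1a without EpCAM- replicate 3 (0.0437, within 0.0103 to 0.18).

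Oasl1, which in mice restrains the translation of the interferon regulator IRF7, had 5.90, 8.49 and 7.39 in EpCAM- cells, against 8.05, 9.25 and 9.64 in EpCAM+ cells. Its difference of -1.72 did not pass (limma adjusted p = 0.0817), but did without EpCAM- replicate 2 (0.0271, within 0.0099 to 0.232 over 17 alternatives). Oas3 and Oasl2 had differences of 0.43 and 0.04 (adjusted p = 0.629 and 0.97). Oas1a shares 57.6% of its 50-base words with Oas1g, a further member of the cluster on chromosome 5. Oas1g was lower, with a difference of -2.02 ± 0.62 (limma adjusted p = 0.0343), and how reads of this pair were divided is uncertain. That call did not hold under 4 of 17 alternatives, those without EpCAM- replicate 1, EpCAM+ replicate 2 or EpCAM+ replicate 3 and quantile normalisation (0.00297 to 0.115).

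Isg15 encodes a ubiquitin-like protein, Usp18 the protease that removes it and also restrains the receptor, and Trim25 an E3 ligase that activates RIG-I. Trim25 had 10.96, 11.03 and 10.84 in EpCAM- cells, against 11.62, 11.80 and 11.83 in EpCAM+ cells. It varied little within groups and was lower, with a difference of -0.81 ± 0.11 (limma adjusted p = 0.000962). Isg15 had 6.29, 8.97 and 7.19 in EpCAM- cells, against 5.67, 6.32 and 6.77 in EpCAM+ cells. The ranges overlapped and the difference of 1.23 did not pass (limma adjusted p = 0.174). Usp18 had a difference of -0.06 (adjusted p = 0.955).

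The Mx genes code for dynamin-like GTPases that block virus replication, and C57BL/6 mice carry defective alleles of them. Neither passed. Mx2 had 5.18, 7.44 and 6.73 in EpCAM- cells, against 4.36, 4.97 and 5.67 in EpCAM+ cells, a difference of 1.45 (limma adjusted p = 0.0936). Mx1 differed by 0.29 (adjusted p = 0.761). The guanylate-binding proteins and the immunity-related GTPases, which attack the vacuoles of intracellular pathogens, did not pass either. Gbp2, Gbp3, Igtp and Irgm1 had differences of 1.02, 0.92, -0.31 and -0.23. Their EpCAM+ values were highest in replicate 3, where Igtp had 8.18 beside 6.33 and 6.43 in the other libraries of EpCAM+ cells.

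Among the effectors, Samhd1 and Isg20 changed in opposite directions with little spread. Samhd1, which degrades the nucleotides needed for DNA synthesis, had 10.86, 10.95 and 10.78 in EpCAM- cells, against 10.18, 10.22 and 10.18 in EpCAM+ cells. It was higher by 0.67 ± 0.09, or 1.59-fold (limma adjusted p = 0.00119). Isg20, an RNA exonuclease, had 8.30, 8.15 and 8.47 in EpCAM- cells, against 9.34, 9.46 and 9.41 in EpCAM+ cells. It was lower, with a difference of -1.09 ± 0.13 (limma adjusted p = 0.000573), and its groups did not overlap.

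Rsad2, Cmpk2 and Bst2 followed the gradient within groups. Rsad2 codes for viperin, which makes a chain-terminating nucleotide, and Cmpk2 beside it on chromosome 12 codes for a nucleotide kinase. Rsad2 had 7.96, 10.57 and 9.41 in EpCAM- cells, against 7.07, 8.15 and 8.66 in EpCAM+ cells, a difference of 1.35 (limma adjusted p = 0.152). Cmpk2 differed by 0.90 (adjusted p = 0.176). Bst2, or tetherin, holds budding virus at the cell surface and differed by 0.76 (adjusted p = 0.159). Eif2ak2, the RNA-activated kinase PKR, differed by -0.01 with a 95% interval of -0.35 to 0.34, and the sign of this value turned under several alternatives.

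The sensors did not move as a group. Cgas had 6.57, 6.36 and 6.34 in EpCAM- cells, against 3.87, 4.20 and 4.96 in EpCAM+ cells. The groups were far apart, and Cgas was higher by 2.08 ± 0.30, or 4.24-fold (limma adjusted p = 0.0016). Its adaptor gene Tmem173 had 10.20, 10.02 and 9.97 in EpCAM- cells, against 10.02, 9.95 and 10.29 in EpCAM+ cells. The difference was -0.02, with a 95% interval of -0.32 to 0.28 (limma adjusted p = 0.912), and quantile or upper-quartile scaling gave it the other sign. Zbp1, a sensor of Z-form nucleic acid that can trigger necroptosis, had 5.29, 7.96 and 6.59 in EpCAM- cells, against 5.86, 6.26 and 7.49 in EpCAM+ cells. It differed by 0.08 (limma adjusted p = 0.94).

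Of the RNA sensors, Ddx58 (RIG-I) passed the test. It had 9.40, 10.37 and 9.57 in EpCAM- cells, against 8.44, 8.67 and 9.14 in EpCAM+ cells, and was higher by 1.03 ± 0.29 (limma adjusted p = 0.026). The groups did not overlap, but the call did not hold under 4 of 17 alternatives, among them those without EpCAM+ replicate 1 or replicate 2 (0.0193 to 0.101). Ifih1 (MDA5) had 7.59, 9.70 and 8.62 in EpCAM- cells, against 9.06, 8.98 and 9.61 in EpCAM+ cells, a difference of -0.58 (limma adjusted p = 0.381). Dhx58 (LGP2), which tunes both sensors, had 5.00, 6.56 and 5.80 in EpCAM- cells, against 5.90, 5.81 and 6.77 in EpCAM+ cells, a difference of -0.37 (limma adjusted p = 0.537). The ranges of Ifih1 and Dhx58 overlapped. Mavs, the adaptor of these sensors, had 9.67, 9.52 and 9.89 in EpCAM- cells, against 9.51, 9.57 and 9.45 in EpCAM+ cells. It differed by 0.18, with a 95% interval of -0.12 to 0.48 (limma adjusted p = 0.292).

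**Figure D4:**
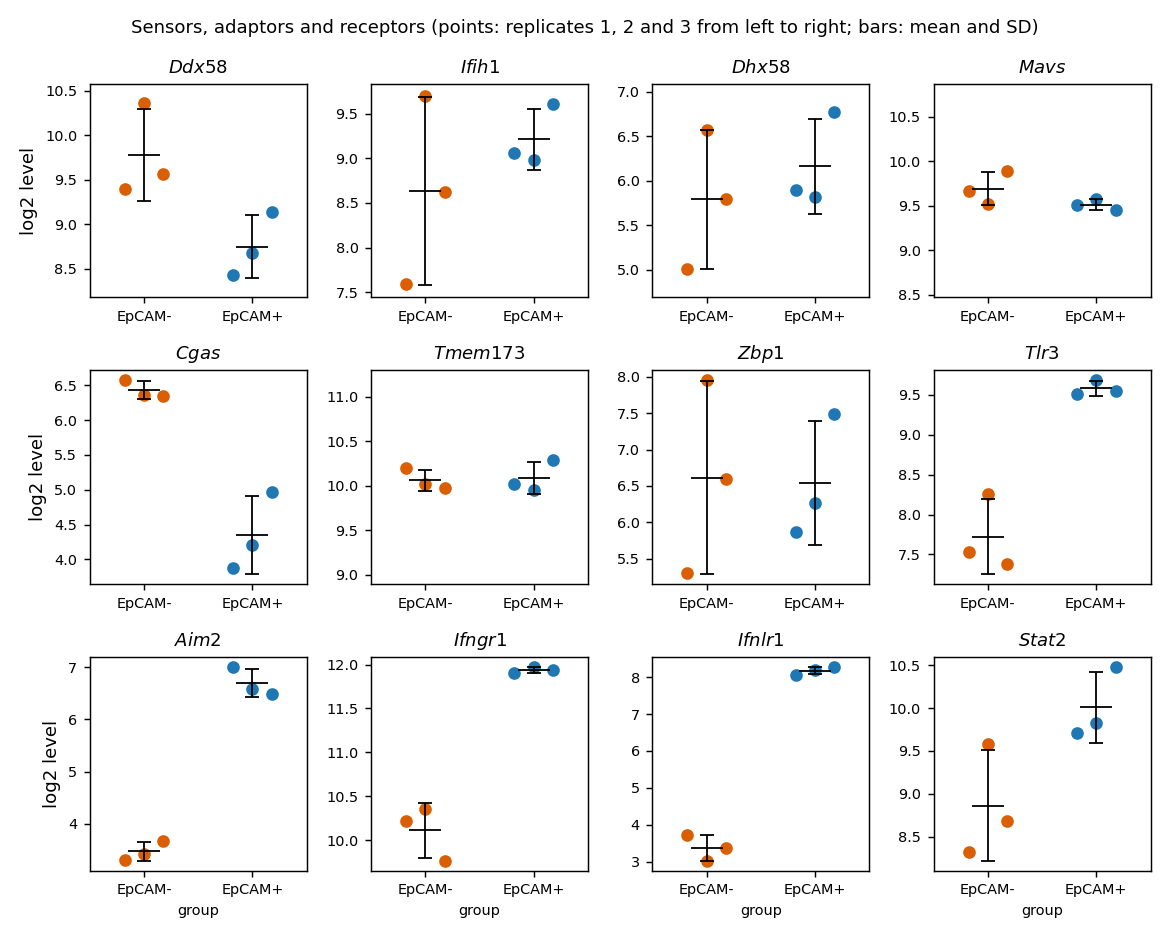
Log2 level of the nucleic acid sensors and their adaptors in each library, with EpCAM- libraries left of EpCAM+ libraries. Points are libraries. Of the sensor and adaptor genes among the 39 members, the groups are apart only for Cgas and Ddx58, with differences of 2.08 and 1.03.

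Members that were lower in EpCAM- cells included Parp9 and Dtx3l, neighbours on chromosome 16. Dtx3l, an E3 ligase, and Parp9 form a complex that modifies histones. Dtx3l had 8.25, 8.99 and 8.39 in EpCAM- cells, against 9.44, 9.41 and 9.97 in EpCAM+ cells, and was lower, with a difference of -1.06 ± 0.24 (limma adjusted p = 0.0114). Parp9 had 8.57, 9.26 and 8.55 in EpCAM- cells, against 9.42, 9.39 and 9.98 in EpCAM+ cells, and was lower, with a difference of -0.80 ± 0.25 (limma adjusted p = 0.0365). Neither pair of groups overlapped. The call of Parp9 held under 8 of 17 alternatives (0.011 to 0.136) and that of Dtx3l under 15 of 17, the exceptions being the ones that left out 2 libraries (0.00491 to 0.0623). These genes overlap on opposite strands over 9.4% of Parp9 and 8% of Dtx3l exon bases, and whether the counting used strand is not stated in the labels. Parp14 differed by -0.77 and did not pass (adjusted p = 0.248).

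Stat2, the signal transducer of type I and type III interferon, had 8.33, 9.58 and 8.68 in EpCAM- cells, against 9.71, 9.82 and 10.48 in EpCAM+ cells. It was lower, with a difference of -1.14 ± 0.35 (limma adjusted p = 0.034), and the groups lay close at EpCAM- replicate 2 and EpCAM+ replicate 1. Its call held under 10 of 17 alternatives (0.00673 to 0.115), and among those that left out 1 library it held only without EpCAM- replicate 2. Ifi35, Ifi44, Rtp4 and Xaf1 differed by 0.10, 0.66, -0.23 and 0.46, and none passed.

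Because most members shared the gradient, each was also taken relative to the mean of the other members in its library, a view added after the data were seen. On this relative scale 21 of 39 members did not overlap between groups, 11 above and 10 below, and 19.6% of all genes did not. The subtraction takes the shared gradient out of the members and puts it into the other genes, and it balances the members around 0. The 2 shares and the split therefore follow in part from the scale and say nothing particular of the members. The median SD of the members on this scale was 0.53 in EpCAM- cells and 0.24 in EpCAM+ cells. Ifit1 averaged 0.92 relative to the other members in EpCAM- cells and -1.23 in EpCAM+ cells. Oas2 averaged -2.72 in EpCAM- cells and -0.22 in EpCAM+ cells, and Oasl1 averaged -0.84 in EpCAM- cells and 1.16 in EpCAM+ cells. All 4 IFIT genes were above without overlap, as were Isg15, Mx2, Rsad2, Cmpk2, Bst2, Ddx58 and Cgas. Oas1a, Oas2, Oasl1, Ifih1, Dhx58, Parp9, Dtx3l, Parp14, Stat2 and Rtp4 were below. A relative value says how a gene stands among the members and does not say that its own level changed.

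**Figure D5:**
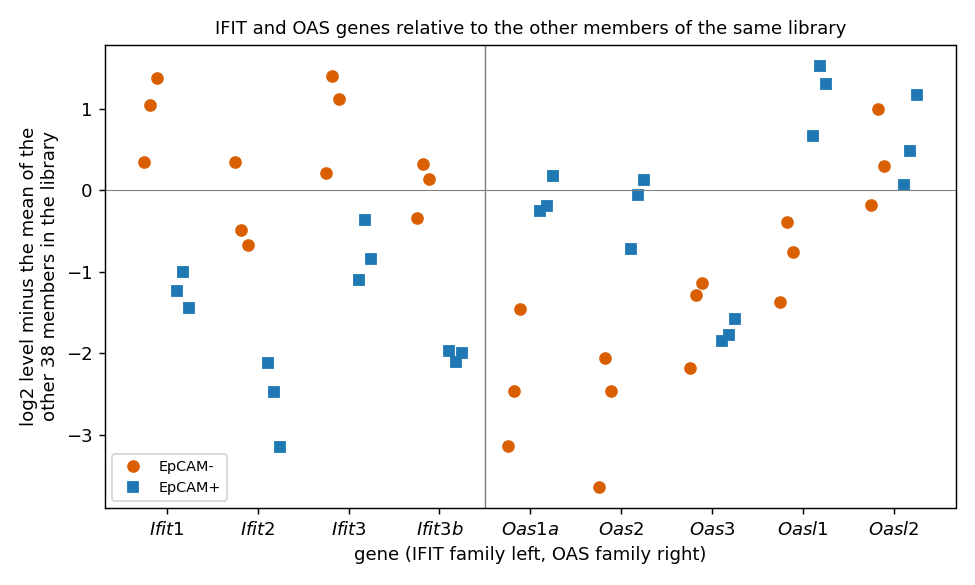
IFIT and OAS genes relative to the mean of the other members in the same library, on the log2 scale, with EpCAM- libraries left of EpCAM+ libraries. The relative levels of all 4 IFIT genes are above in EpCAM- cells, and those of Oas1a, Oas2 and Oasl1 are below.

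Other genes of the pathway were taken from lists of 107 genes, of which 98 had a row and 84 were tested. Of these, 12 were higher (14.3%) and 21 lower (25%) in EpCAM- cells, beside 20.3% and 23.1% of all genes, so the lists as a whole were near the background. In the list of receptors and the signalling genes below them, 2 of 10 were higher (20%, beside 20.3% of all genes) and 3 lower (30%, beside 23.1%). Ifnlr1, the specific chain of the type III interferon receptor, had 3.73, 3.03 and 3.38 in EpCAM- cells, against 8.06, 8.20 and 8.27 in EpCAM+ cells. It was lower, with a difference of -4.80 ± 0.23 (limma adjusted p = 1.2e-05). Ifngr1, a chain of the interferon-gamma receptor, was lower, with a difference of -1.83 ± 0.16 (limma adjusted p = 0.00014), with 10.22, 10.35 and 9.77 in EpCAM- cells, against 11.91, 11.98 and 11.93 in EpCAM+ cells. Ifnar2, of the type I receptor, was higher by 0.65 (limma adjusted p = 0.00657), as was the kinase gene Jak1 by 0.58 (limma adjusted p = 0.0197), whose call did not hold under 4 of 17 alternatives (0.00394 to 0.142). Those left out EpCAM- replicate 3, EpCAM+ replicate 1, both of these, or EpCAM+ replicate 3. Ifnar1 differed by 0.16 without passing (adjusted p = 0.164).

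The interferon genes themselves were barely measured. Of 12 listed, Ifnb1, Ifnab and Ifne had a row and fell under the filter, with Ifnb1 between -0.43 and -0.26 in EpCAM- cells and between -0.42 and -0.34 in EpCAM+ cells. The other 9 were not analysed here. Among kinases, adaptors and Toll-like receptors, 2 of 11 tested were higher (18.2%, beside 20.3% of all genes) and 4 lower (36.4%, beside 23.1%). Aim2, a DNA sensor that assembles an inflammasome, was lower, with a difference of -3.23 (limma adjusted p = 5.49e-05), with 3.31, 3.43 and 3.67 in EpCAM- cells, against 7.01, 6.58 and 6.50 in EpCAM+ cells. Tlr3, a sensor of double-stranded RNA in endosomes, was lower, with a difference of -1.86 (limma adjusted p = 0.000835). Tbkbp1, which binds the kinase TBK1, was higher by 3.18 (limma adjusted p = 0.000391), and Ifi204 by 2.02 (limma adjusted p = 0.00348).

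Among 13 negative regulators 3 were higher and 2 lower, 38.5% in all beside 43.4% of all genes. Rnf125, a ligase that targets RIG-I for degradation, was higher by 1.87 (limma adjusted p = 0.0052), and Socs1, an inhibitor of JAK kinases, by 1.59 (limma adjusted p = 0.00545). The phosphatase gene Ptpn6 was lower, with a difference of -2.72 (limma adjusted p = 0.000134), and Nlrx1, which restrains MAVS signalling, was lower too (limma adjusted p = 0.0102). Of 38 other type I interferon-stimulated genes tested, 5 were higher (13.2%, beside 20.3% of all genes) and 11 lower (28.9%, beside 23.1%). Epsti1 was lower, with a difference of -3.41 (limma adjusted p = 7.94e-05) and so was Lgals3bp, with one of -2.83 (limma adjusted p = 0.000294), while Ifi203 was higher by 2.04 (limma adjusted p = 0.0106). Of 12 interferon-gamma-induced genes tested, 8.33% passed, beside 43.4% of all genes. Ciita, the activator of MHC class II genes, was lower, with a difference of -1.60 (limma adjusted p = 0.021). Its call did not hold under 5 of 16 alternatives (0.00501 to 0.146), which left out EpCAM- replicate 3, EpCAM+ replicate 1 or EpCAM+ replicate 3, or 2 libraries at once.

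Marker lists of several cell types moved with the groups and, in part, with the libraries. Some of these markers may be made by the sorted cells themselves, which was not tested. Levels here are sums of back-transformed values over each marker list. The macrophage list summed to 1004 to 1208 in EpCAM- cells and 4445 to 10696 in EpCAM+ cells, with 10 of 12 markers lower (83.3%, beside 23.1% of all genes). Its highest library was EpCAM+ replicate 1. Cd14 made up 23.2% to 29.6% of the sum in EpCAM- cells and 39.6% to 69.4% in EpCAM+ cells. Without Cd14 the list summed to 707 to 886 in EpCAM- cells and 1360 to 6461 in EpCAM+ cells. The pan-leukocyte list summed to 446 to 923 in EpCAM- cells and 632 to 2010 in EpCAM+ cells. Cd53 alone made up 75.7% to 82.1% of it in EpCAM- cells and 12.9% to 17% in EpCAM+ cells. Without Cd53 it summed to 148, 165 and 80.4 in EpCAM- replicates 1 to 3. In EpCAM+ replicates 1 to 3 it summed to 1751, 525 and 866. Of its 7 markers tested, 1 was higher (14.3%, beside 20.3% of all genes) and 4 lower (57.1%, beside 23.1%). The endothelial list summed to 4252, 9584 and 7616 in EpCAM- replicates 1 to 3, and to 1965, 2292 and 1247 in EpCAM+ replicates 1 to 3. The sum was nearly all Flt1, a VEGF receptor gene. It made up 94.4% to 97.7% of the sum in EpCAM- cells and 89.7% to 93.1% in EpCAM+ cells. Without Flt1 the list summed to 239, 222 and 225 in EpCAM- replicates 1 to 3. In EpCAM+ replicates 1 to 3 it summed to 135, 162 and 128. The fibroblast list ran from 36438 to 167897 in EpCAM- cells and from 1882 to 14676 in EpCAM+ cells. Of its 10 markers 8 were higher (80%, beside 20.3% of all genes) and 1 lower (10%, beside 23.1%). It holds collagen genes and gives no count of fibroblasts.

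Of 9 T and NK cell markers none passed the filter, and 4, among them Cd3e and Nkg7, were below 0 on the log2 scale in all 6 libraries. Of 6 neutrophil markers only Mmp9 passed the filter, and without it the list summed to 14.5 to 16.7 in EpCAM- cells and 17.7 to 25.5 in EpCAM+ cells. The B cell list summed to 34 to 48.9 in EpCAM- cells and 33.7 to 49.4 in EpCAM+ cells. Of 6 markers of plasmacytoid dendritic cells, 4 had a row, and the sum was dominated in EpCAM+ cells by Klk1 (75.6% to 86%), a kallikrein gene that is also expressed in the pancreas. That list therefore gives no level for this cell type. Epithelial markers were lower in 8 of 8 cases (100%) and acinar markers in 7 of 8 (87.5%), beside 23.1% of all genes. The acinar list summed to 422 to 508 in EpCAM- cells and 39518 to 77741 in EpCAM+ cells. The part of these cells in the results on the members was not tested.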

How the data were processed

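RNA was measured in 6 libraries of sorted cells, 3 EpCAM- and 3 EpCAM+. Per the labels' protocols, extraction used a MagMAX kit, library preparation a KAPA mRNA HyperPrep kit and sequencing an Illumina HiSeq. The submitters' processing notes name STAR 2.5.2, RSEM, DESeq2 1.24.0 and the build GRCm38, with no role or order. The values deposited by the authors are on a log2 scale and normalised between libraries, from -1.52 to 20.05. No source used here gives the transform. Depth is unknown, and whether the transform shrinks the fold changes of low genes was not tested.

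The filter kept 15783 of 25978 genes, those averaging at least 10 after back-transformation. They were tested with limma 3.58.1 in R 4.3.3 (trend in the prior variance, no covariate). Tests were two-sided, with Benjamini-Hochberg adjustment over all genes tested and a threshold of 0.05. With 3 against 3 libraries an exact permutation test cannot go below 0.1, so none was used. The procedure was also run on simulated data, but the outcome is not given here and nothing is concluded from it. Symbols and coordinates came from GENCODE M21 (GRCm38), with a symbol for 25846 identifiers and none for 132. Promoters came from RefSeq (GRCm38.p6).

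The members, the lists and the tests were chosen with earlier results of these data known. All 39 members are accounted for. Values per library are given for sensors, adaptors and members past the test with a difference of at least 1, and for examples of the rest, some of them chosen after their values were seen. From each pathway list up to 4 genes past the test and up to 2 others are named. Alternatives were pseudocounts of 1 and 5, no filter or a minimum of 50, quantile and upper-quartile normalisation, TMM scaling by the trimmed mean of M values, no trend, a replicate block and libraries left out. Figures were drawn with matplotlib 3.10.9. Some items of the genotype and of the pathway lists are not reported here.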

Additional observations from a re-analysis of the deposited data

How the results depend on the processing

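Ifit2, Trim25, Samhd1, Isg20 and Cgas kept their calls under all 17 alternatives. Over all member values under the alternatives, 564 kept direction and side of the threshold, 26 came to pass, 28 no longer passed and 44 changed sign. Leaving out 1 library at a time gave 3 to 13 members higher and 3 to 7 lower. In all, 15.4% to 41% of members passed in these fits, against 31.6% to 46.3% of all genes. The 13 came without EpCAM- replicate 1 and the 3 higher without EpCAM+ replicate 1. The 3 lower came without EpCAM- replicate 1 and without any 1 of the EpCAM+ libraries. Without EpCAM+ replicate 1 and EpCAM- replicate 3 together, 3 members were higher and 2 lower (12.8% in all, against 27.7% of all genes). There 6 pathway genes were higher and 1907 of all genes were higher. With 1 or 2 libraries left out, all genes ran from 1907 to 3325 higher and from 2462 to 3975 lower, and pathway genes from 6 to 14 higher and from 14 to 25 lower. Without both libraries numbered 1, an alternative added after the data were seen, 9 members were higher and 5 lower (35.9% in all, against 39% of all genes). Relative to the other members, 21 members did not overlap, beside 19.6% of all genes, which follows in part from the scale. The cause of the changes with libraries left out was not tested, and fewer libraries also leave less to estimate the spread from.

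With the replicate number as a block, 9 members were higher and 7 lower, 14 and 24 pathway genes, and 3365 and 3725 of all genes (44.9% in all). The 16 members that passed were 41% of 39. The block brought Ifit3 (limma adjusted p = 0.00863), Oas1a (0.0103), Oas2 (0.0132), Oasl1 (0.0099), Mx2 (0.0257) and Rsad2 (0.0273) past the threshold and took Parp9 (0.0513) out. The labels do not say that the numbers pair the libraries. Deviations of same-numbered libraries correlated at 0.41, 0.044 and 0.165 over genes for replicates 1, 2 and 3, and not every library correlated best with its own number. EpCAM- replicate 2 correlated best with EpCAM+ replicate 3 (0.134) and EpCAM- replicate 3 with EpCAM+ replicate 2 (0.23).

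Signs turned only for members that did not pass. With quantile normalisation the differences were 0.27 for Usp18, 0.014 for Igtp, 0.057 for Eif2ak2, 0.012 for Dhx58, 0.042 for Tmem173 and 0.12 for Rtp4. Upper-quartile scaling gave 0.030 for Eif2ak2 and 0.016 for Tmem173, and TMM scaling gave 0.0037 for Eif2ak2. With 1 or 2 libraries left out, the lowest and highest differences were -0.088 to 1.17 for Oas3, -0.66 to 0.73 for Oasl2, -0.67 to 0.78 for Usp18, -0.33 to 1.12 for Mx1, -0.70 to 0.29 for Igtp, -0.53 to 0.30 for Irgm1, -0.16 to 0.082 for Eif2ak2, -0.76 to 0.022 for Dhx58, -0.12 to 0.082 for Tmem173, -0.60 to 0.74 for Zbp1, -0.11 to 0.27 for Ifi35, -0.14 to 1.44 for Ifi44, -0.65 to 0.24 for Rtp4 and -0.065 to 0.89 for Xaf1.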
